A study of Rattus norvegicus with 80 samples.

Results

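The comparison set mammary tumors of the Nf1-mutated rat line labelled IFPS against whole mammary pads of the same line. It used 15 of the 80 RNA sequencing libraries of the series, chosen by their tissue and genotype labels: 9 IFPS tumors and 6 IFPS pads. All 15 carry the IFPS genotype, so no library without a mutated Nf1 gene stands on either side. The labels do not spell out what IFPS, or the line names IF and PS, stand for, and they give no age, treatment, tumor grade or animal of origin. The pad titles carry the numbers 4 to 6 (pads 1 to 3 here) and 16 to 18 (pads 4 to 6 here). The tumors are numbered 1 to 9 in the order of their records, and the titles of tumors 5 and 6 share a start that other titles lack. Since nothing in the labels says that the libraries came from separate animals, the p-values measure the spread between these samples, which may be partly technical. The other libraries served as reference: tumors and pads of PS (9 and 6) and IF (5 and 3), and pads (6) and isolated cells (3 of each type) of wildtype rats. Cells isolated from IFPS rats (3 of each type) were set beside the tumors and pads. Libraries called normal are all 57 pads and isolated cells of the series. They include the mutated lines IF, PS and IFPS as well as wildtype.

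Nf1 encodes neurofibromin, a protein that switches Ras off by speeding the hydrolysis of the GTP bound to it. Loss of neurofibromin leaves Ras and the kinases below it, the RAF, MEK and ERK cascade, more active, and NF1 mutations predispose people to tumors of the nerve sheath and to breast cancer. A whole mammary pad is mostly fat: ducts of luminal and basal epithelial cells run through adipocytes, fibroblasts, vessels, nerves and immune cells. A bulk comparison of tumor with pad therefore reads the makeup of the tissue together with the activity of each cell, and fewer cells of a type cannot be told apart here from less RNA per cell.

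The deposited table names genes by Ensembl identifier only, and 0 of its 32883 identifiers could be paired with a symbol. Nf1 itself, marker genes, pathway lists and sequences were therefore not analysed here. Instead, genes were sorted into groups by where they are expressed in wildtype rats, whose libraries take no part in the comparison. A gene counted as enriched in mammary epithelial cells (MECs), in adipocytes or in fibroblasts when it was at least 4-fold higher there than in each of the other 2 cell types at an adjusted p under 0.05 (edgeR). Genes at least 4-fold over adipocytes in both MECs and fibroblasts, with no such difference between those, are called shared. Genes at least 4-fold higher in wildtype pads than in all 3 cell types are called pad-enriched. This last group can hold genes of vessels, nerves, muscle and immune cells, which the isolated cells lack, and genes that cells switch off in culture. The MECs and fibroblasts were grown in culture and the adipocytes were not, so the first groups also carry the effect of culture.

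The libraries held 18222634 to 32353084 counts, and the 10 most abundant genes took 5.41% to 17% of them. No 2 libraries of a group agreed within sampling noise (51 pairs, smallest chi-square per degree of freedom 20.1). The pads resembled each other closely, with Spearman correlations across genes of 0.933 to 0.994 (15 pairs, median 0.978). The tumors did not: their 36 pairs spanned 0.756 to 0.991 with a median of 0.823. Tumors 1, 2, 3, 4, 5 and 7 formed a block with correlations of 0.925 to 0.991 among themselves, while tumors 6, 8 and 9 stood apart from the block and, with correlations of 0.778 to 0.882, from each other. Tumor 6 had a median correlation of 0.912 with the pads and 0.809 with the other tumors, so the library labelled tumor 6 lay nearer to pads, and its closest library of all was pad 6 (0.949). Tumor 9 was also nearer to pads (median 0.842) than to tumors (0.771), and tumor 8 was far from both (0.798 and 0.790). Tumors 5 and 6, which share the start of their titles, correlated at 0.843. Against the means of cells isolated from IFPS rats, the 6 tumors of the block were closest to MECs (0.838 to 0.889), tumors 6 and 9 to adipocytes (0.869 and 0.826) and tumor 8 to fibroblasts (0.832). Pads 1 to 5 were closest to MECs as well (0.827 to 0.869), and pad 6 to adipocytes (0.851). Results that rest on tumors 6, 8 and 9 are given with and without them. That choice was made after the data were seen. Where a gene group differs in those tumors, the result without them is partly set by the choice.

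**Figure D1:**
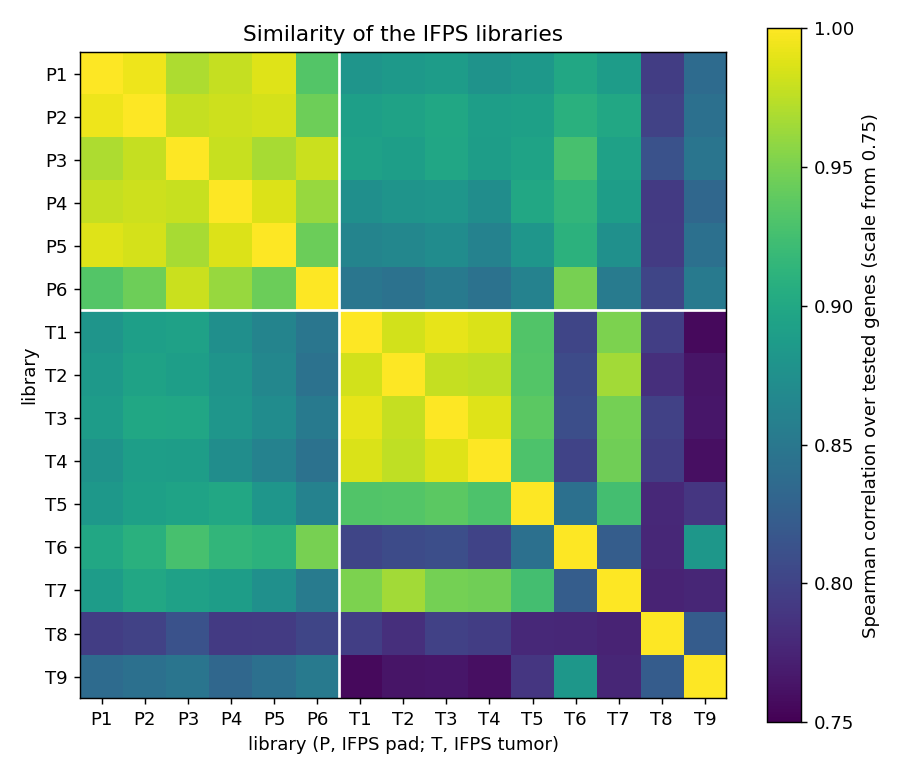
Spearman correlation across tested genes between each pair of the 15 libraries, with pads P1 to P6 first and tumors T1 to T9 after them; the color scale starts at 0.75. Tumors 1 to 5 and 7 form a bright block, tumor 6 is bright against the pads, and tumors 8 and 9 are dark against nearly all libraries.

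Over all 9 tumors and 6 pads, 2346 of 15640 genes differed at an adjusted p under 0.05 (edgeR quasi-likelihood test, Benjamini-Hochberg), which is 15% of the genes tested. Of these, 1352 were higher in tumors (8.64%) and 994 lower (6.36%). Without tumors 6, 8 and 9 the same test called 8381 of 15440 genes (54.3%), 4397 higher (28.5%) and 3984 lower (25.8%). Of the 2346 genes, 2304 were called in the same direction without those tumors and 0 in the opposite one, and 36 fell below the filter on low counts. Both tests use the same 6 pads and share the remaining tumors. Their agreement in direction was thus largely set in advance and supports nothing further. Leaving out tumor 6 alone gave 4138 calls, leaving out tumor 9 gave 3352, and leaving out pad 5 gave the fewest, 1144. The median absolute log2 fold change of the 2346 genes was 0.88, so most of the called differences were smaller than 2-fold. The signed median over all genes tested, in which rises and falls cancel, was 0.13.

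Fewer genes passed against 3 pads than against 6. Against pads 1 to 3 alone 285 genes were called (1.75%), 45 higher in tumors (0.277%) and 240 lower (1.48%). Against pads 4 to 6 alone 141 were called (0.868%), 11 higher (0.0677%) and 130 lower (0.8%). The balance thus moved from 57.6% higher with all pads to 15.8% and 7.80% higher with 3 pads.

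In 795 genes (5.08%) the tumors and pads did not overlap at all: 421 lay above every pad in all 9 tumors (2.69%) and 374 below (2.39%). Of the 1352 genes called higher, 385 were above all pads in 9 tumors, 539 in 8 and 307 in 7. The genes called lower were less even. Here 340 lay below all pads in 9 tumors and 321 in 8, but 56 were below all pads in none, so their groups overlapped while their means differed.

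Genes enriched in MECs, the cells of the ducts, were high in 6 tumors and low in 3. The median log2 CPM (counts scaled to the library total, on a log2 scale) of the 790 tested genes of this group was 2.34 to 2.92 in the 6 pads. In tumors 1 to 5 and 7 it was 3.67 to 3.88, above every pad, and these genes took 4.98% to 5.71% of all counts there, against 1.18% to 2.39% in pads. In tumor 6 the median was 1.11, in tumor 8 it was -0.65 and in tumor 9 it was -1.26, all below every pad. Between 494 and 516 of the 790 genes (62.5% to 65.3%) lay above the highest pad in each tumor of the block. Genes in none of the groups did so in 32.5% to 37.5%. In tumor 9, 670 lay below the lowest pad, in tumor 8 586 did and in tumor 6 565 did. With all 9 tumors only 52 of the 790 genes rose (6.58%, against 8.64% of all genes) and 15 fell, and 723 did not pass, with a median log2 fold change of 0.72. Without tumors 6, 8 and 9, 497 of 779 rose (63.8%, against 28.5% of all genes), 53 fell, and the median was 1.13. The group was low in just these 3 tumors, so the rise without them is largely set by leaving them out.

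Adipocyte-enriched genes mirrored this only in part. Adipocytes store lipid and fill most of a healthy pad, and the median log2 CPM of the 904 tested genes was 3.77 to 4.12 in pads. In the tumors it was 1.95 in tumor 8, 2.27 to 2.67 in tumors 1 to 4, 3.37 in tumor 5, 3.06 in tumor 7 and 3.80 in tumor 9. Tumor 9 was thus inside the pad range. Tumor 6 stood at 4.62, above every pad, and adipocyte-enriched genes took 17.5% of its counts, against 6.76% to 13.6% in pads. With all tumors 74 of 904 genes fell (8.19%, against 6.36% of all genes) and 45 rose, with a median log2 fold change of -0.33. Without tumors 6, 8 and 9, 473 of 887 fell (53.3%, against 25.8%) and 105 rose, with a median of -0.95. Leaving out tumor 6 alone moved the number that fell to 306.

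Fibroblasts make the collagen-rich matrix around ducts and fat. Of the 279 tested fibroblast-enriched genes, 18 fell (6.45%, against 6.36% of all genes) and 13 rose (4.66%, against 8.64%). The median log2 fold change was 0.17. The levels leaned the other way. The median log2 CPM was 2.43 to 2.73 in pads and 1.05 to 2.35 in tumors 1 to 5, 7 and 8, all below every pad, while tumors 6 and 9 stood at 2.63 and 2.67, inside the pad range. Without tumors 6, 8 and 9 the median fold change turned to -0.66. In that setting 120 of 273 genes fell (44%, against 25.8% of all genes) and 45 rose (16.5%, against 28.5%). The sign of this median also turned without tumor 9 alone (-0.11) and, with all tumors kept, with DESeq2 (-0.29) and with limma voom and sample weights (-0.91), so no direction is given for the group.

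Genes shared by MECs and fibroblasts showed no common level across the tumors. Of 846 tested, 72 rose (8.51%, against 8.64% of all genes) and 20 fell (2.36%, against 6.36%), and the median log2 fold change was 0.46. Their median log2 CPM was 3.14 to 3.38 in pads. It was higher in tumors 1, 3, 4, 5 and 8 (3.47 to 3.84), lower in tumors 2 and 7 (3.08 and 2.74), and lowest in tumors 6 and 9 (1.86 and 1.91). In tumors 8 and 9 these genes took 10.4% and 7.91% of all counts, against 4.71% to 6.32% in pads, so the share of tumor 9 was above the pads while its median was below them. The share of tumor 8 was high although the MEC-enriched genes of tumor 8 had a median of -0.65, below every pad. Without tumors 6, 8 and 9, 304 of 837 rose (36.3%, against 28.5% of all genes) and 195 fell (23.3%, against 25.8%), with a median of 0.45.

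Pad-enriched genes had a lower median level in all 9 tumors. Of 891 tested, 233 fell (26.2%, against 6.36% of all genes) and 14 rose, with a median log2 fold change of -0.85. Their median log2 CPM was 1.78 to 3.17 in pads and -0.06 to 1.73 in tumors, so the median of every tumor, tumors 6 and 9 included, lay below that of every pad. The share of counts did not separate: these genes took 2.03% to 3.92% in pads, 5.12% in tumor 5, above every pad, and 2.51% and 2.94% in tumors 6 and 7, inside the pad range. Pad 6 was the lowest pad at 1.78 and tumor 5 the highest tumor at 1.73, so the gap between the groups was narrow. Without tumors 6, 8 and 9, 500 of 866 fell (57.7%, against 25.8%) and 83 rose, with a median of -1.46. Against pads 1 to 3 alone 138 of these genes fell (1.48% of all genes did) and 0 rose (0.277%). Against pads 4 to 6 alone 54 fell (0.8% of all genes) and 0 rose (0.0677%). Among the 50 most abundant pad-enriched genes, 12 fell and 0 rose, against 6.36% and 8.64% of all genes. In these 50, tumor 6 (median log2 CPM 7.76) was not below the pads (7.22 to 7.74).

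Genes too low to be tested in wildtype libraries moved upward. Of 222 such genes, 69 rose (31.1%) and 1 fell, with a median log2 fold change of 1.46. A gene of this kind passed the count filter here because some IFPS libraries expressed it, so this share and direction cannot be read against those of other genes. The filter asks for expression in several libraries and so favors genes high in the tumors that resemble each other. The counts per tumor that follow are therefore partly set by it. In tumors 1 to 5 and 7 between 133 and 155 of the 222 lay above the highest pad, against 51 in tumor 6, 82 in tumor 8 and 64 in tumor 9.

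**Figure D2:**
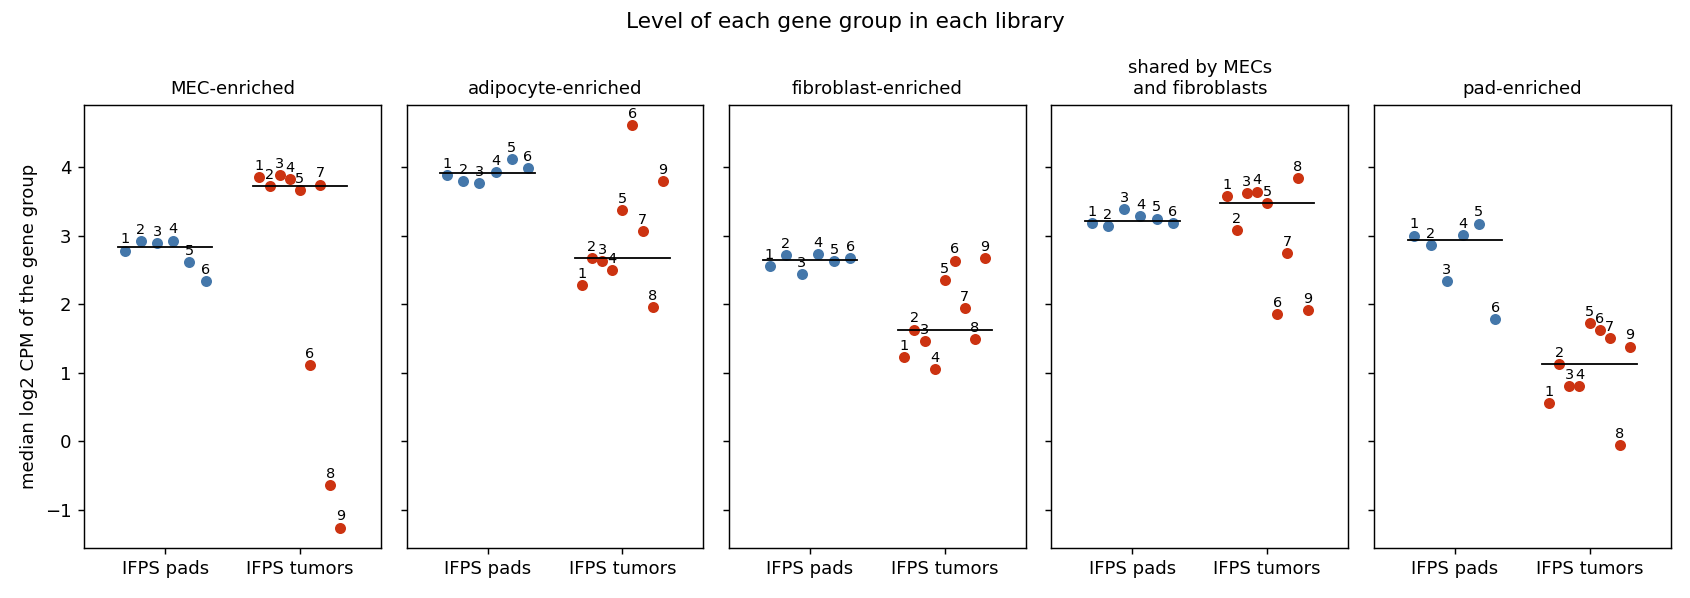
Median log2 CPM of the genes of each group in each library; blue points are the 6 IFPS pads, red points the 9 IFPS tumors, numbers name the library and bars mark the median of the libraries. MEC-enriched genes are above every pad in 6 tumors and below every pad in tumors 6, 8 and 9, adipocyte-enriched genes are highest in tumor 6, and pad-enriched genes are below every pad in all 9 tumors.

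Single genes are shown for 4 identifiers, 2 higher and 2 lower in tumors, with the largest log2 fold changes among called genes whose groups did not overlap and that had a median of at least 5 CPM in the higher group. The median was used after the values were seen, because a mean let 1 tumor decide the choice. Since their values chose these genes, the tests beside them describe them and support nothing further. Levels in other lines and in isolated cells were scaled over all libraries of the series, and those of IFPS pads and tumors over the 15 libraries compared. The identifiers have no symbol here, and reads shared with a near-identical, overlapping or antisense gene could not be separated, since the counting is not given in the sources used here.

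ENSRNOG00000043451, a MEC-enriched gene, had 1.14, 1.76 and 2.57 CPM in the pads (lowest, median, highest) and 9.42, 89.9 and 476 CPM in the tumors. Every tumor was above every pad; tumor 5 was highest and tumors 8 and 9 were lowest. The log2 fold change was 6.30 ± 0.87 (SE, n = 9 and 6; edgeR adjusted p 0.000895). The gene was also higher in PS tumors (log2 fold change 6.19, adjusted p 4.07e-06). Cultured IFPS MECs had 336 to 795 CPM, and only tumor 5 reached that range, while IFPS adipocytes and fibroblasts had 61.0 to 198 and 108 to 136 CPM. Pads thus had lower levels than each of the 3 isolated cell types. Against pads 4 to 6 alone the adjusted p was 0.0545 (log2 fold change 6.16).

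ENSRNOG00000059837, a fibroblast-enriched gene, had 0.08 to 0.59 CPM in the pads with a median of 0.239, and 0.79, 14.8 and 39.4 CPM in the tumors (lowest, median, highest). All tumors were above all pads, with tumor 6 lowest and tumor 8 highest. Tumor 6 was close to the pads, with 19 counts against 16 in pad 4, the highest pad. The log2 fold change was 5.90 ± 0.84 (SE, n = 9 and 6; edgeR adjusted p 0.00115). IFPS fibroblasts in culture had 8.49 to 10.5 CPM, IFPS MECs 0.39 to 0.72 and IFPS adipocytes 0.10 to 0.19, so 6 of the tumors exceeded the cultured cell type that expresses it most. It was higher in IF tumors too (7.19, adjusted p 0.00997). Against pads 4 to 6 alone the adjusted p was 0.062 (log2 fold change 5.54).

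ENSRNOG00000046258 belongs to no cell-type group and was lower in tumors. The pads had 0.51, 29.4 and 49.2 CPM (lowest, median, highest), with pads 3 and 6 far below the others at 2.62 and 0.51 CPM. The tumors had 0 to 0.39 CPM with a median of 0.119, below every pad. The separation from pad 6 rests on very few counts. Pad 6 had 12 counts and tumor 5, the highest tumor, had 13, so only the scaling of the libraries sets them apart. The log2 fold change was -7.25 ± 0.95 (SE, n = 9 and 6; edgeR adjusted p 0.000657). In cultured IFPS MECs the gene stood at 6.87 to 8.50 CPM, above all tumors of the line. In PS its change did not pass (log2 fold change -2.45, adjusted p 0.166): 2 PS tumors had 21.9 and 8.13 CPM while the median of the 9 was 0.17.

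ENSRNOG00000013552, an adipocyte-enriched gene, was among the most abundant in pads, at 4544, 7770 and 24540 CPM (lowest, median, highest). The tumors had 0.77, 44.7 and 917 CPM, all below every pad, with tumor 6 highest and tumors 8 and 9 near 1 CPM. The log2 fold change was -5.90 ± 1.18 (SE, n = 9 and 6; edgeR adjusted p 0.00645). Isolated IFPS adipocytes had 9900 to 15500 CPM, fibroblasts 451 to 567 and MECs 32.4 to 40.3. The gene was thus low in tumor 6, whose adipocyte-enriched genes as a group were above the pads. Against pads 1 to 3 alone and pads 4 to 6 alone it did not pass (edgeR adjusted p 0.0718 and 0.062).

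**Figure D3:**
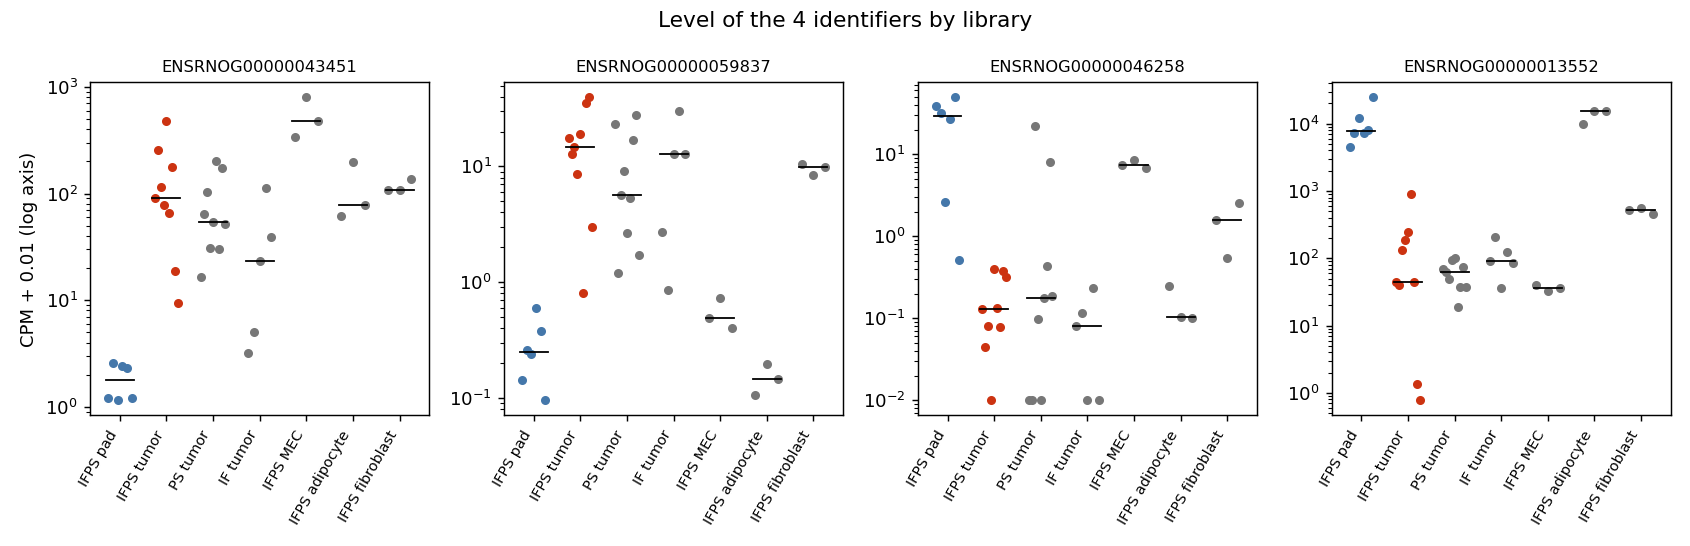
CPM plus 0.01 of the 4 identifiers on a log axis, 1 point per library, for IFPS pads (blue), IFPS tumors (red) and, in gray, PS and IF tumors and isolated IFPS cells; bars mark medians. IFPS tumors and pads do not overlap in any of the 4 panels, and tumor 6 is the highest red point for the last identifier at 917 CPM. For ENSRNOG00000059837 and ENSRNOG00000046258 the nearest pad and tumor rest on few counts.

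Each tumor was then set against the range of the pads, gene by gene. Counting genes at least 4-fold from the pad mean and outside all 6 pads, tumors had 328 to 809 genes above and 755 to 2441 below. Tumor 8 had the most in both directions (809 and 2441) and tumor 9 the next (766 and 2150), while tumor 6 had the fewest above (328) and tumor 5 the fewest below (755). Losses outnumbered gains in each of the 9 tumors, by 2441 to 809 in tumor 8 and by 755 to 627 in tumor 5. Only genes past the count filter were counted. That filter keeps a gene expressed in the pads alone but drops one expressed in only a few tumors. The balance of losses and gains is therefore partly set by the filter. These counts describe single libraries and carry no test.

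**Figure D4:**
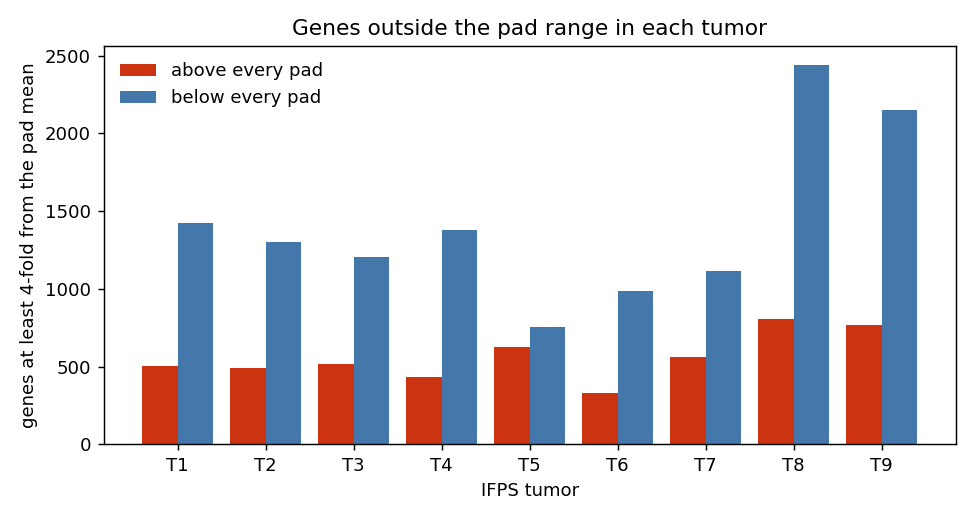
Number of genes in each IFPS tumor that lie outside the range of the 6 pads and at least 4-fold from their mean, above (red) and below (blue). Below-pad genes outnumber above-pad genes in every tumor, and tumors 8 and 9 have 2441 and 2150 of them. The count filter drops genes expressed in only a few tumors, so the balance is partly set by it.

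Genes expressed throughout the pads were sometimes undetected or nearly so in a tumor. Of 11081 genes with at least 5 CPM in all 6 pads, 501 were under 0.5 CPM in at least 1 tumor, 275 of them in 1 tumor only, 41 in 5 or more and 0 in all 9. Tumor 8 lacked 320 and tumor 9 lacked 250, against 19 to 92 in the others. Of the 371 MEC-enriched genes in this set, 117 were off in tumor 8 and 136 in tumor 9, and at most 4 in any other tumor, tumor 6 included. Adipocyte-enriched genes showed another pattern: of 549, 61 were off in tumor 8, 43 in tumor 2 and 34 in tumor 1, 6 in tumor 9 and 0 in tumor 6. Although MEC-enriched genes were below the pads in tumors 6, 8 and 9, few of them were off in tumor 6.

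The opposite case was counted by another rule, over all normal libraries and not the IFPS pads alone, so its count cannot be set against the last. The 57 normal libraries are the pads and isolated cells of every line, mutated lines included. Of 10663 genes under 1 CPM in all of them, 127 reached 5 CPM in at least 1 IFPS tumor. Of these, 118 did so in 1 tumor only. Just 6 genes were on in 3 or more tumors, and no gene was on in more than 6. Tumor 8 had 58 such genes, tumor 5 had 27, tumor 7 had 17 and tumor 9 had 16, and the others had 4 to 8. Of the 127, 21 were also on in a PS tumor and 33 in an IF tumor. PS tumors had 4 to 20 such genes each and IF tumors 11 to 48.

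The spread between tumors was larger than that between pads for 92.3% of genes. The median SD of log2 CPM was 0.618 over the tumors and 0.244 over the pads, and 0.297 over the tumors without 6, 8 and 9. MEC-enriched genes had the largest spread of the gene groups over all 9 tumors, with a median SD of 2.18 over the tumors, 0.531 without those 3 and 0.432 over the pads. Without those 3 tumors the order changed: fibroblast-enriched (0.734), pad-enriched (0.729), shared (0.629), low in wildtype (0.606) and adipocyte-enriched genes (0.569) all varied more than MEC-enriched genes. Over all 9 tumors, MEC-enriched genes made up 302 of the 782 genes that varied most (the top 5%).

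The tumor effect of IFPS was next compared with that of the other lines, each with its own pads, so that no library is shared. Tested within the line, 8222 of 15466 genes differed between PS tumors and PS pads (53.2%; 30.5% higher and 22.6% lower) and 4217 of 15617 between IF tumors and IF pads (27%). Of the 2267 called IFPS genes that were also tested in PS, 1754 were called in the same direction there (77.4% of the IFPS list and 21.6% of the PS list) and 0 in the opposite one. Of 2263 tested in IF, 908 were called in the same direction (40.1% and 22%) and 12 in the opposite one. Across genes, which are not independent replicates, the log2 fold changes of IFPS and PS correlated at 0.673 (Spearman) and those of IFPS and IF at 0.567.

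The gene groups can be set side by side across the lines. In PS, 485 of 785 MEC-enriched genes rose and 33 fell (median log2 fold change 1.22), against 497 of 779 and 1.13 in IFPS without tumors 6, 8 and 9. The median of MEC-enriched genes in IF was 1.17. Adipocyte-enriched genes had medians of -0.91 in PS, -1.19 in IF and -0.95 in IFPS without those tumors. Fibroblast-enriched genes had -0.74, -0.73 and -0.66, and pad-enriched genes -1.25, -1.47 and -1.46, in the same order. Shared genes had medians of 0.07 in PS, 0.04 in IF and 0.45 in IFPS without those tumors. Only IFPS had tumors left out, and they were chosen after the data were seen. With all 9 tumors the IFPS medians were 0.72 (MEC-enriched), -0.33 (adipocyte-enriched), 0.17 (fibroblast-enriched), -0.85 (pad-enriched) and 0.46 (shared). How near the lines lie in each group thus depends on that choice. These medians were not tested against each other.

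**Figure D5:**
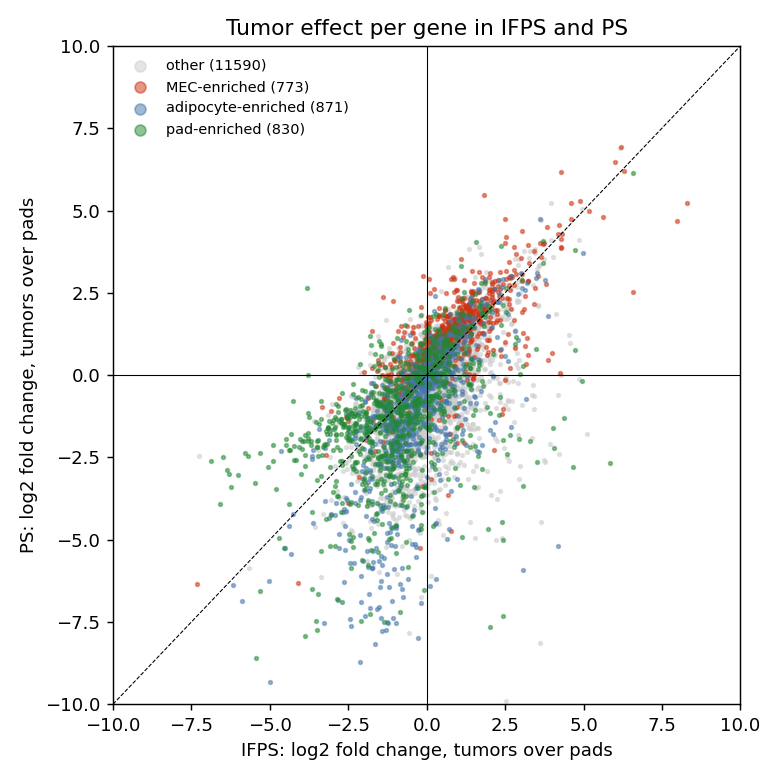
Log2 fold change of tumors over pads for each gene tested in both lines, IFPS on the horizontal axis and PS on the vertical axis, for 4 gene groups (genes in the legend, the fibroblast, shared and low groups not drawn); the dashed line marks equal effects. Most points fall in the lower left and upper right panels of the plot, and adipocyte-enriched and pad-enriched genes spread below the dashed line where the PS effect is more negative.

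A test of the difference itself called 0 of 17227 genes between IFPS and PS (edgeR interaction term; 2364 at an unadjusted p under 0.05, and 237 by DESeq2). It called 0 as well without tumors 6, 8 and 9 (1132 unadjusted). A count of 0 does not show that the lines act alike.

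Between IFPS and IF, 80 genes differed (0.464%), 35 with a higher (0.203%) and 45 with a lower (0.261%) tumor effect in IFPS, and in 67 of them the 2 effects had opposite signs. Of the 80, 5 were among 846 MEC-enriched genes, 3 among 964 adipocyte-enriched, 4 among 302 fibroblast-enriched, 3 among 892 shared, 7 among 1013 pad-enriched and 58 among 11999 of no group. With counts this small against 0.464% of all genes, nothing is read from the groups. The count was 483 without IFPS tumors 6, 8 and 9 and 0 with pads of the title numbers 1 to 12 only. That last setting kept every IF library. The count was 0 without IF pad 2, 5 without IF pad 3, 25 without IF pad 1 and 154 without IF tumor 5. It thus depended on which libraries were kept. For this test only IF libraries were left out 1 at a time, and fewer pads also make calls harder to reach.

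The pads of IFPS were also compared among themselves. Between pads 4 to 6 and pads 1 to 3, 0 of 16557 genes differed when the tumors shared the fit (edgeR; 92 at an unadjusted p under 0.05, and 6 by DESeq2), and 16 did when the 6 pads were fitted alone. Pad 6 was the least typical pad. Its MEC-enriched and pad-enriched genes were the lowest of the pads (median log2 CPM 2.34 and 1.78), and adipocyte-enriched genes took the largest share of its counts, 13.6%. The pad closest to pad 6 was pad 3, and pad 6 was the library closest to tumor 6. Without both pad 6 and tumor 6, 3587 of 15787 genes differed between tumors and pads, and 1778 of them were lower in tumors. Pad-enriched genes made up 368 of those lower genes, against 233 of 994 with all libraries.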

How the data were processed

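The deposited table holds raw counts of reads per gene for 32883 identifiers in 80 libraries. The submitters' processing notes name Trim Galore, STAR 2.5.2b and the build Rnor_6.0, and the counting tool, annotation and strand setting are not given in the sources used here. Per the labels' protocols, pads and tumors were lysed fresh in Trizol, and poly(A) libraries were read as pairs. Groups came from the tissue and genotype labels. The counts were used as deposited, with TMM factors, the filter filterByExpr, the quasi-likelihood test of edgeR 4.0.16 (R 4.3.3) on the 15 IFPS libraries only, and Benjamini-Hochberg adjustment, called at an adjusted p under 0.05. Printed levels are CPM with TMM factors, with a prior count of 2 on the log2 scale. Shares of counts are of the library total. The spread was fitted on these libraries alone, and a fit of 3 lines with a shared spread was an alternative. The comparison with PS and IF used 1 fit of 6 groups. DESeq2 1.42.0 and limma 3.58.1 were alternatives, and the code was tested on simulated data. The comparison, the gene groups and the rules were chosen with earlier results of these data known. The rule for named genes asked for a symbol and for the largest significant fold changes among genes with no overlap between tumors and pads. It also asked for the same direction against each set of pads alone. No gene met it, so it was applied without the symbol to 4 identifiers, by the median CPM. The marker and pathway lists could not be matched.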

Additional observations from a re-analysis of the deposited data

Results flagged for a closer look

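Tumor 8 stood apart in the number of genes that were silent in all normal libraries and on in the tumor: it had 58, and the next tumor had 27 (gap over range 0.574, above Dixon's critical value for 9 samples). Of 22 sets of values examined in this way 1 was marked, and chance marks about 1 in 20. The tumor effect differed between IFPS and IF in 80 genes (edgeR interaction term). This count fell to 0 when IF pad 2 was left out, and also when only pads of title numbers 1 to 12 were kept.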

How the results depend on the processing

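The 2346 genes called became 4489 with DESeq2, 9839 with limma voom and sample weights, 4814 with 1 fit of 3 lines, 285 and 141 with pads 1 to 3 or 4 to 6 only, 3995 without both tumors 5 and 6, 8381 without tumors 6, 8 and 9 and 3587 without tumor 6 and pad 6. In that order of settings, all genes called higher (1352) were 2522, 4868, 2694, 45, 11, 2034, 4397 and 1809. All genes called lower (994) were 1967, 4971, 2120, 240, 130, 1961, 3984 and 1778. The group counts partly follow these totals, so a larger count alone shows no larger effect on a group. MEC-enriched genes called higher (52) were, in the same order, 131, 406, 150, 1, 0 and, without tumors 6, 8 and 9, 497. Adipocyte-enriched genes called lower (74) were 261, 598, 164, 14, 6, 304, 473 and 270. Fibroblast-enriched genes called lower (18) were 49, 151, 28, 2, 2, 34, 120 and 28, and 9 with groups by an 8-fold difference. Shared genes called higher (72) were 143, 339, 161, 5, 2, 131, 304 and 113, with 44 under no filter on low counts and 34 with 8-fold groups. Pad-enriched genes called lower (233) were 381, 626, 386, 138, 54 and, without tumors 6, 8 and 9 and without tumor 6 and pad 6, 500 and 368. The fibroblast-enriched median of 0.17 reversed to -0.29 with DESeq2, -0.91 with voom, -0.017 without tumors 5 and 6 and -0.66 without tumors 6, 8 and 9. Other medians moved to -1.22 (adipocyte-enriched, voom) and to -2.13 and -1.46 (pad-enriched, voom and without tumors 6, 8 and 9). The difference from IF (80) was 47 without a filter, 598 with DESeq2, 0 with pads of title numbers 1 to 12 and 483 without tumors 6, 8 and 9. The difference from PS (0) was 237 with DESeq2, and that between the sets of pads (0) was 6 with DESeq2 and 16 with the 6 pads alone. The cause of these moves was not tested, beyond fewer samples where libraries were left out. Leaving out 1 library in turn gave 1144 to 4138 calls, 19 to 117 MEC-enriched genes higher, 36 to 306 adipocyte-enriched, 10 to 38 fibroblast-enriched and 154 to 346 pad-enriched genes lower, and 28 to 134 shared genes higher. The medians were 0.60 to 0.87, -0.62 to -0.25, -0.11 to 0.24, -1.13 to -0.77 and 0.28 to 0.53 for these groups in that order. The difference from IF was 0 to 154 when 1 IF library was left out. That between pad sets was 0 when 1 IFPS pad was left out. RLE or upper-quartile factors, the robust prior, thinned counts and groups taken from IFPS cells moved no count of calls by over 1.5 times. All 4 identifiers kept their direction under every setting. They were chosen for no overlap and for the same direction against each set of pads, so this was largely fixed in advance. The edgeR adjusted p was 0.0545 and 0.062 against pads 4 to 6 for the first pair. For ENSRNOG00000013552 it was 0.0718 and 0.062 against pads 1 to 3 and 4 to 6. Thinning every library to the depth of tumor 9 gave 2207 calls. No paired analysis was possible because the tumor titles carry no number shared with the pads.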
